A study of Mus musculus with 6 samples.

Results

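The clustered Zfp genes of the mouse autosomes were examined in Hi-C maps of C2C12 cells, a mouse skeletal muscle cell line that fuses into myotubes in culture. A member was an autosomal protein-coding gene of the GENCODE annotation of mm10 whose symbol is Zfp followed by a number and whose transcription start site lies in a 500 kb bin with 3 or more such genes. The rule found 36 bins with 175 genes, and 35 of them, with 172 genes, had data in all 3 conditions. These 35 bins on 12 chromosomes, of 4727 autosomal bins with data, are called Zfp cluster bins here, and their genes made up 172 of the 358 autosomal Zfp genes. The bin left out, at 146.5 Mb of chr 4 with Zfp981, Zfp989 and Zfp993, had no data in any condition, and 30.0% of its bases are unknown in the reference. Bins are named by chromosome and start in Mb, so that chr 7, 24 Mb stands for chr7:24000001-24500000.

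The 3 conditions were sub-confluent myoblasts after 72 h of proliferation (day 0), myotubes after 3 days in differentiation medium, and AraC-treated myotubes on day 7, which had received 10 µg/ml AraC from day 3. AraC is a cytidine analogue that removes dividing cells. Each condition had 2 biological replicate libraries, but the values used are 1 pooled matrix per condition, so no spread between replicates could be given, no test was possible, and the sequencing depth could not be read from the values. The study reports a lower correlation between replicate matrices in myoblasts than in either later condition. It also reports that the pooled libraries differed in valid read pairs, with the most in myotubes and the fewest in AraC-treated myotubes. What this difference in depth did to the values compared between conditions was not tested. All 3 conditions came from 1 cell line, and AraC and the longer time in culture cannot be told apart. Each matrix holds, for every pair of 500 kb bins, the correlation coefficient of their normalized interaction profiles. No expression is measured in these matrices, so markers of the labelled cell types were not checked.

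Zfp genes with C2H2 zinc fingers form one of the largest families of DNA-binding proteins of mammals, and many of them arose by tandem duplication and lie side by side. Each finger holds a zinc ion between a pair of cysteines and a pair of histidines, and an array of fingers reads a stretch of DNA. Many of the proteins also carry a KRAB domain, which binds the corepressor TRIM28 and, through it, the H3K9 methyltransferase SETDB1 and HP1 proteins, and they are known for silencing endogenous retroviruses. Their gene clusters are known to carry H3K9me3 over the gene bodies in many cell types.

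The repeat that defines the family is shown in 4 finger units, from the bin with the most Zfp genes and from the member with the most fingers. A unit here is the 84 bases from the first cysteine codon of a finger to the base before the next finger, within a coding exon, and capitals mark the cysteine and histidine codons. The units of Zfp458 lie at chr13:67258044-67258127 and chr13:67257960-67258043 (mm10, minus strand), that of Zfp459 at chr13:67408558-67408641 (minus strand), and that of Zfp646 at chr7:127879430-127879513 (plus strand).
Zfp458, unit 1: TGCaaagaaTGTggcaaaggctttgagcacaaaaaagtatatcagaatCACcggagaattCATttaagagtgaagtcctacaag
Zfp458, unit 2: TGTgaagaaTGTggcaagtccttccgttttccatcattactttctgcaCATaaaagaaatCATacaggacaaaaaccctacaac
Zfp459, unit 1: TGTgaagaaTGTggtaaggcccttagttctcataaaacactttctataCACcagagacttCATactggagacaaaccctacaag
Zfp646, unit 1: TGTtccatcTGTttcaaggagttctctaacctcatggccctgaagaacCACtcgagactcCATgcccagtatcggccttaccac

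Zfp458 and Zfp459, which lie in the same bin, shared 72.6% of bases between unit 2 of the former and the unit of the latter. Unit 1 of Zfp458 shared 60.7% with the unit of Zfp459, and the 2 units of Zfp458 shared 53.6% with each other. The other fingers of these genes were not compared. The Zfp646 unit was 40.5 to 45.2% identical to the other units. Zfp458 encodes 752 residues with 21 finger motifs, Zfp459 encodes 267 residues with 3, and Zfp646 encodes 1788 residues with 30. Of the 172 clustered Zfp genes, 170 held 3 or more C2H2 motifs (98.8%), against 1.48% of 20449 other autosomal protein-coding genes. The name therefore matched the encoded protein in nearly all members. A KRAB A box pattern was found in 136 of 172 clustered Zfp genes (79.1%), in 68 of 186 Zfp genes outside the clusters (36.6%) and in 103 of the 20449 other genes (0.504%). The pattern was widened after the members' sequences had been read, which can favour the clustered genes in this comparison. No share from a narrower pattern is given for the genes outside the clusters.

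The Zfp cluster bins were divided between the A and B compartments. PC1, the first principal component of the within-chromosome correlation matrix, was oriented so that positive values (A) lie on the gene-rich side of each chromosome. PC1 was positive in 16 of 35 Zfp cluster bins in myoblasts (45.7%, exact 95% binomial interval 28.8 to 63.4%) and in 15 of 35 in both later conditions (42.9%, 26.3 to 60.6%). Of all 4727 autosomal bins, 38.2% had positive PC1 (myoblasts), 36.5% (myotubes) and 35.5% (AraC-treated myotubes), each within the interval of the Zfp cluster bins. The intervals cover counting error only, and adjacent bins are not independent. Of the 35 bins, 14 were A in all 3 conditions, 18 were B in all 3, and 3 changed sign.

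**Figure D1:**
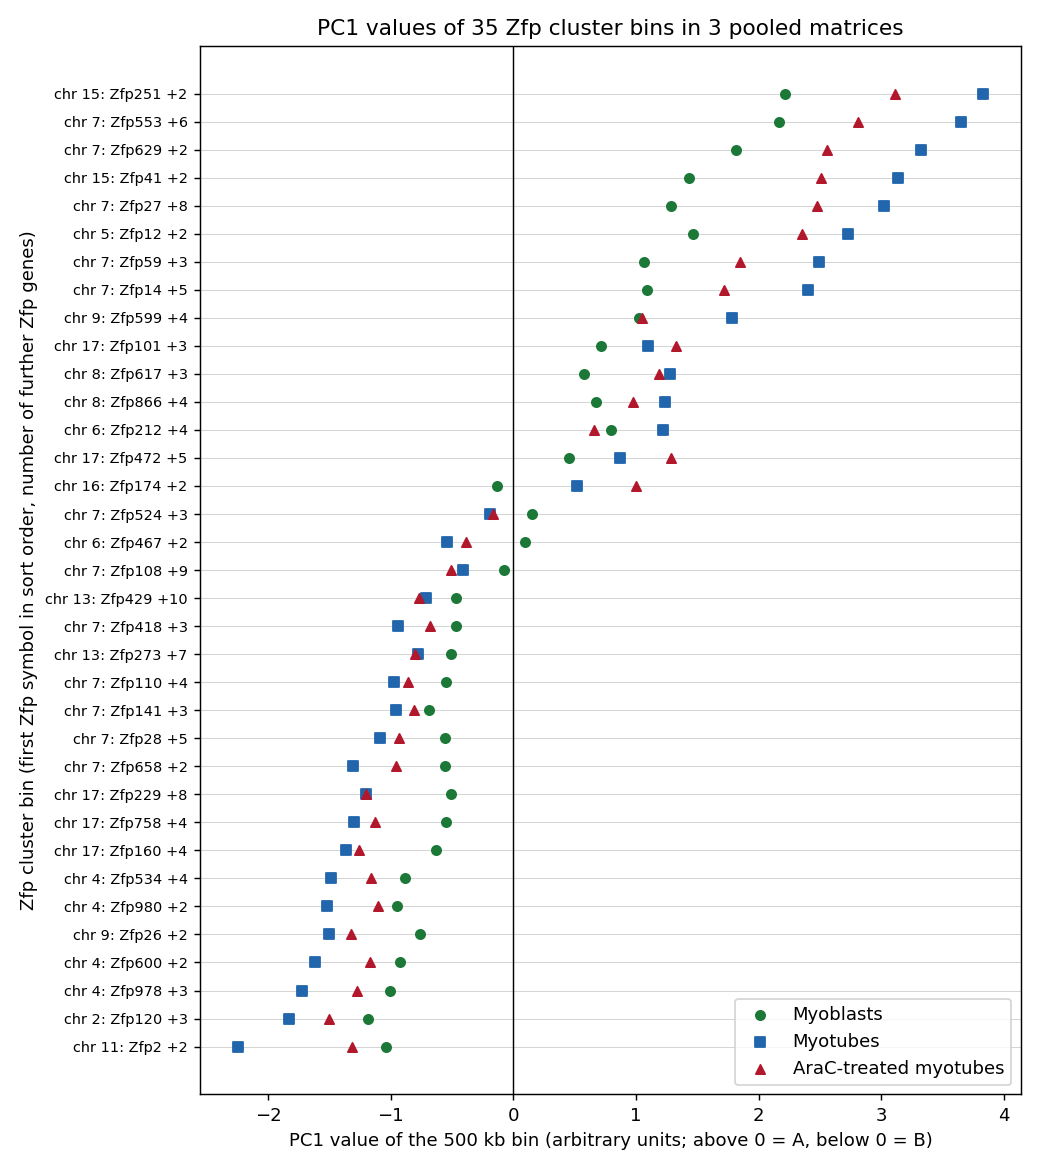
PC1 values (arbitrary units, x axis) of the 35 Zfp cluster bins (y axis, ordered by mean PC1 and named by chromosome, one Zfp gene and the number of further Zfp genes) in the 3 pooled matrices, shown as green circles for myoblasts, blue squares for myotubes and red triangles for AraC-treated myotubes. The 14 bins at the top lay above 0 and the 18 at the bottom below 0 in every condition, and the 3 between them changed sign.

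The A side was led by chr 15, 76.5 Mb, with Zfp251, Zfp647 and Zfp7, where PC1 was 2.22 (myoblasts), 3.83 (myotubes) and 3.11 (AraC-treated myotubes). PC1 at chr 7, 127 Mb, with Zfp553, Zfp688, Zfp689, Zfp747, Zfp764, Zfp768 and Zfp771, was 2.16, 3.65 and 2.81 in the same order. The adjacent bin at 127.5 Mb, with Zfp629, Zfp646 and Zfp668, had PC1 of 1.82, 3.32 and 2.56. These 3 bins lay between the 92.9th and the 98.2nd percentile of all autosomal bins in every condition. They held 28 to 29 protein-coding genes each, of which 3 to 7 were Zfp genes.

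In the other A bins the Zfp share of the protein-coding genes ranged from 16.7% to 81.8%. At chr 7, 29.5 Mb, 9 of 11 protein-coding genes were Zfp genes, among them Zfp568, a KRAB protein known for repressing a placental transcript of Igf2, and PC1 was 1.29, 3.03 and 2.47 in myoblasts, myotubes and AraC-treated myotubes. The bin beside it, at 30 Mb, held Zfp14, Zfp146, Zfp260, Zfp382, Zfp566 and Zfp82 among 27 genes and had PC1 of 1.09, 2.40 and 1.71. The bin chr 9, 22 Mb held Zfp599, Zfp653, Zfp810, Zfp872 and Zfp809, the last known for initiating the silencing of murine leukaemia virus in embryonic cells, and PC1 there was 1.03, 1.78 and 1.05. At chr 17, 32.5 Mb, with Zfp472, Zfp799, Zfp811, Zfp870, Zfp871 and Zfp952, PC1 was 0.453, 0.872 and 1.29, the lowest of the A bins in myoblasts. The other A bins, at chr 5, 143 Mb (Zfp12), chr 6, 47.5 Mb (Zfp212), chr 7, 27.5 Mb (Zfp59), chr 8, 69.5 Mb (Zfp866) and 71.5 Mb (Zfp617), chr 15, 75.5 Mb (Zfp41) and chr 17, 33 Mb (Zfp101), each named here by one of its Zfp genes, lay between 0.576 and 3.14 in all conditions.

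The B side held the bins with the most Zfp genes, those with 11 and 10. The median number of Zfp genes was 4.5 both in bins that were A and in bins that were B in all conditions. At chr 13, 67 Mb, 11 Zfp genes (Zfp429, Zfp455 to Zfp459, Zfp595, Zfp708, Zfp712, Zfp759 and Zfp953) lay among 18 protein-coding genes, a cluster known for repressors of sex-dependent liver genes. PC1 in this bin was -0.468 (myoblasts), -0.715 (myotubes) and -0.766 (AraC-treated myotubes), and the next bin, with 8 further Zfp genes, had -0.512, -0.779 and -0.799. At chr 7, 24 Mb, the 10 Zfp genes Zfp61, Zfp93, Zfp94, Zfp108, Zfp109, Zfp111, Zfp112, Zfp114, Zfp180 and Zfp235 lay close to the border of the compartments in myoblasts (-0.0804) and further into B later (-0.413 and -0.508). The chr 17 cluster at 21, 21.5 and 22 Mb held 19 Zfp genes in 3 adjacent bins, and in its central bin, where 9 of 10 genes were Zfp genes, PC1 was -0.505, -1.20 and -1.20.

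The lowest PC1 by mean over conditions was at chr 11, 50.5 Mb, with Zfp2, Zfp454 and Zfp879, where it was -1.04, -2.25 and -1.32 in myoblasts, myotubes and AraC-treated myotubes. The bin chr 2, 150 Mb, with Zfp120, Zfp345, Zfp442 and Zfp937, had -1.18, -1.83 and -1.50, and was the lowest in myoblasts and in the AraC-treated cells. The chr 4 cluster, known for KRAB genes that silence endogenous retroviruses, had 4 bins with data and 15 Zfp genes. PC1 there ranged from -0.881 at 147.5 Mb to -1.01 at 147 Mb in myoblasts and from -1.48 to -1.72 in myotubes at the same bins. Unknown bases made up 20.0% and 36.4% of the bins at 145.5 and 146 Mb, so fewer positions of these bins could be mapped.

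The chromosomes did not divide in the same way. All 4 chr 4 bins and both chr 13 bins were B, while both chr 8 bins and both chr 15 bins were A. Chr 7 alone held 12 Zfp cluster bins with 65 Zfp genes, of which 5 bins were A, 6 were B and 1 changed sign. On chr 17 the bins at 21, 21.5 and 22 Mb were B and the adjacent bins at 32.5 and 33 Mb were A. Where a neighbouring bin outside the clusters had data, PC1 of the Zfp cluster bin was lower than that of its neighbours in 18 of 31 bins (myoblasts), 15 of 31 (myotubes) and 18 of 31 (AraC-treated myotubes), so the clusters were not placed on one side of their surroundings.

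The A and B bins differed in what else they held. Bins that were A in all conditions had a median of 17 protein-coding genes, of which 26.4% were Zfp genes when summed, and bins that were B in all conditions had a median of 11, of which 44.6% were Zfp genes. The median GC content was 46.5% (range 41.0 to 49.3%) in the A bins and 40.7% (39.3 to 46.9%) in the B bins, and repeat-masked sequence made up a median of 34.0% and 40.1%. The 2 sets overlapped in both measures. The same order was seen over all autosomal bins, where the medians of GC content were 44.7% in bins that were A and 39.8% in bins that were B in all conditions. Across the 35 Zfp cluster bins, the Pearson r of PC1 with GC content was 0.739, 0.719 and 0.721 in myoblasts, myotubes and AraC-treated myotubes, and that with gene number was 0.615, 0.587 and 0.556. With the share of genes that are Zfp genes r was -0.442, -0.432 and -0.452, and with the number of Zfp genes it was -0.0050, 0.0001 and -0.0593. The share is a part of gene number, so its r is not independent of that with gene number. Over all autosomal bins r with the share was -0.001, 0.001 and 0.0009. These coefficients describe 35 bins of 1 genome, some of them adjacent, and GC content and gene number vary together. The sign of PC1 was set by gene number on each chromosome. The direction of the difference in gene number between A and B bins, and of what varies with gene number, is therefore not a separate result.

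**Figure D2:**
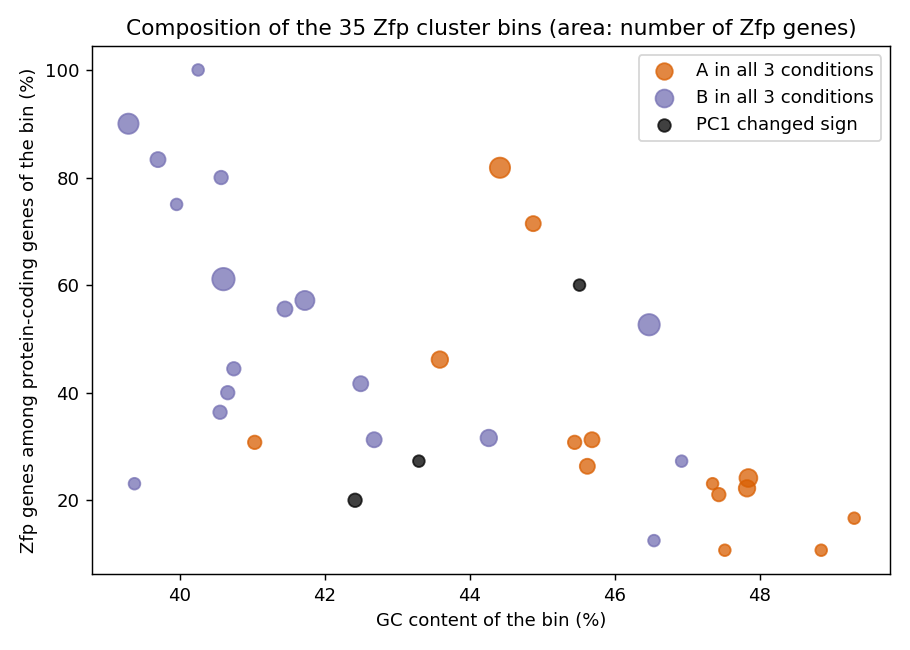
GC content of each bin (x axis, percent) against the share of its protein-coding genes that are Zfp genes (y axis, percent) for the 35 Zfp cluster bins. Each point is a bin, its area is proportional to its number of Zfp genes, and orange, violet and black mark bins that were A in all 3 conditions, B in all 3, or changed sign; the A bins lay mostly at the right, with a median GC content of 46.5% against 40.7% in the B bins.

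The encoded proteins of the A and B bins differed less in finger number than in matches to a KRAB A box pattern. The median number of C2H2 motifs per Zfp gene was 12 in the A bins and 12 in the B bins. A KRAB A box pattern was found in 48 of 67 Zfp genes of the A bins (71.6%, exact 95% binomial interval 59.3 to 82.0%) and in 87 of 95 of the B bins (91.6%, 84.1 to 96.3%). Of the 10 Zfp genes in bins that changed sign, 1 held it (Zfp777). All 19 Zfp genes of the chr 13 bins and all 19 of the chr 17 bins at 21, 21.5 and 22 Mb held the pattern, while none of Zfp629, Zfp646 and Zfp668 at chr 7, 127.5 Mb did. Zfp genes duplicated side by side share their domains, so these genes are not independent, and the pattern misses boxes that diverged. It was widened after the members' sequences had been read, and its first part alone matched 53.7% of A and 69.5% of B Zfp genes. The shares therefore count matches to the pattern and not all KRAB domains. Over all 348 autosomal Zfp genes in bins with data, clustered or not, the shares were 66 of 150 in A bins (44.0%) and 117 of 161 in B bins (72.7%).

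At like gene number, the share of Zfp cluster bins in A was the lower one in each class of gene number, but the shares of other bins lay inside its interval. Among bins with 10 or more protein-coding genes, 14 of 27 Zfp cluster bins were A in each condition (51.9%, exact 95% binomial interval 32.0 to 71.3%), and 68.7%, 67.5% and 67.3% of 600 other autosomal bins were A in myoblasts, myotubes and AraC-treated myotubes, values inside that interval. Among bins with 3 to 9 genes, 2 of 8 Zfp cluster bins were A in myoblasts and 1 of 8 in the later conditions, beside 52.2%, 50.2% and 49.2% of 1635 other bins. With 10 to 14 genes the numbers were 5, 6 and 6 of 13, beside 67.3%, 65.5% and 67.0% of 339 other bins. With 15 or more genes they were 9, 8 and 8 of 14, beside 70.5%, 70.1% and 67.8% of 261 other bins. The distance from other bins was thus smallest in the bins with the most genes.

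**Figure D3:**
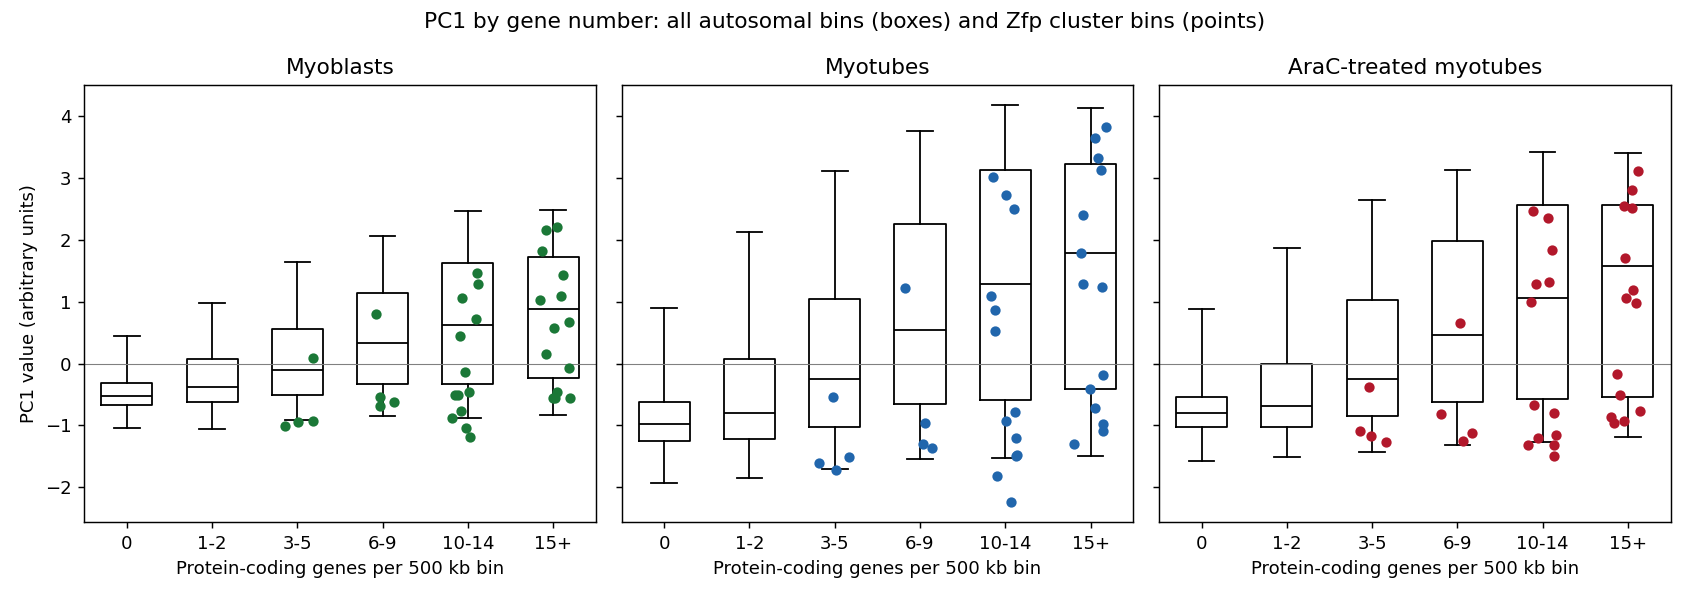
PC1 values (y axis, arbitrary units) by number of protein-coding genes per 500 kb bin (x axis) in the 3 conditions. Boxes show the quartiles and median of all autosomal bins with whiskers at the 5th and 95th percentiles, and coloured points are the Zfp cluster bins, of which 14 of 27 with 10 or more genes lay above 0 in each condition.

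Bins with other numbers of Zfp genes and with other gene families gave different shares. The 151 bins with 1 or 2 Zfp genes were A in 55.6%, 53.6% and 51.7% in myoblasts, myotubes and AraC-treated myotubes. The 125 bins with 3 or more olfactory (Olfr) or vomeronasal (Vmn) receptor genes, the other large tandem families of the mouse genome, were A in 12.0%, 11.2% and 10.4%, below the lower bound of the interval for the Zfp cluster bins. Of the 35 Zfp cluster bins, 7 also held 3 or more receptor genes.

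The place of the Zfp cluster bins changed little between conditions. PC1 changed sign in 3 of 35 bins from myoblasts to myotubes (8.57%, exact 95% binomial interval 1.80 to 23.1%) and in the same 3 from myoblasts to AraC-treated myotubes, where 7.28% and 10.2% of all autosomal bins changed. From myotubes to AraC-treated myotubes it changed in 0 of 35 (upper bound 10.0%), where 5.10% of all bins changed. All of these background shares lay inside the intervals. The Pearson r of PC1 over the 35 bins was 0.985 for myoblasts against myotubes, 0.969 for myoblasts against AraC-treated cells and 0.988 for the later conditions, and over all autosomal bins it was 0.967, 0.939 and 0.983.

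The 3 bins that changed sign were close to 0 in myoblasts. At chr 16, 3.5 Mb, which holds Zfp174 and Zfp263, both with a SCAN oligomerization domain, and Zfp597, PC1 was -0.135 (myoblasts), 0.521 (myotubes) and 1.00 (AraC-treated myotubes). It moved from B to A. At chr 6, 48 Mb, with Zfp777, Zfp746 and Zfp467, a factor known from adipocyte and osteoblast differentiation, PC1 was 0.092, -0.543 and -0.388. At chr 7, 5 Mb, with Zfp524, Zfp580, Zfp784 and Zfp865, it was 0.155, -0.193 and -0.163. Both of these moved from A to B. None of the 3 changes remained once bins with small PC1 were set aside (absolute PC1 up to the 20th percentile of the chromosome in either condition). With the component taken from correlations with other chromosomes, 5.71% of the Zfp cluster bins changed sign from myoblasts to each later condition. Without centred columns 2.86% did.

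The median share of variance that PC1 explained over the autosomes was 39.4% (myoblasts), 71.3% (myotubes) and 63.5% (AraC-treated myotubes). The scale of PC1 differed between matrices, with an SD over autosomal bins of 0.859 (myoblasts), 1.61 (myotubes) and 1.36 (AraC-treated myotubes), so that raw values were further from 0 in myotubes on both sides. PC1 divided by this SD rose in 16 of 35 Zfp cluster bins from myoblasts to myotubes, where it rose in 47.4% of all bins, and in 18 of 35 from myoblasts to AraC-treated myotubes, where it rose in 46.8%. From myoblasts to myotubes the largest rises on this scale were 0.48 at chr 16, 3.5 Mb, 0.38 at chr 7, 29.5 Mb and 0.31 at chr 7, 27.5 Mb. The largest falls were -0.44 at chr 6, 48 Mb, -0.30 at chr 7, 5 Mb and -0.25 at chr 7, 127 Mb. From myoblasts to AraC-treated myotubes, chr 16, 3.5 Mb rose by 0.89, chr 17, 32.5 Mb by 0.42 and chr 7, 29.5 Mb by 0.32. In the same comparison chr 7, 127 Mb changed by -0.44, chr 6, 47.5 Mb by -0.44 and chr 9, 22 Mb by -0.42, all without leaving A.

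Interaction profiles within the chromosome gave the same picture. They use the correlations from which PC1 was computed, so they are not separate evidence. The profile correlation of a bin is the Pearson r of its row of the matrix between 2 conditions, taken across all its other bins on that chromosome. Its median over the Zfp cluster bins was 0.910, 0.884 and 0.962 for the same 3 comparisons, and over all autosomal bins 0.877, 0.840 and 0.947. It was below 0 in 1, 1 and 0 of the 35 bins, where 3.26%, 5.80% and 1.16% of all bins were below 0. The bin below 0 was chr 16, 3.5 Mb, with -0.0295 and -0.275 against myoblasts and 0.802 between the later conditions. The other bins that changed sign had 0.389 and 0.301 (chr 6, 48 Mb) and 0.404 and 0.394 (chr 7, 5 Mb) against myoblasts. The highest value between myoblasts and myotubes was 0.973, at chr 15, 76.5 Mb.

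Between chromosomes, Zfp cluster bins were ordered by the compartments of both bins. Over the 508 pairs of Zfp cluster bins on different chromosomes, the mean correlation coefficient was 0.0073 (myoblasts), 0.00556 (myotubes) and 0.00215 (AraC-treated myotubes), beside 0.00526, 0.00743 and 0.00306 over all 10547562 pairs of autosomal bins. The SD over the single Zfp pairs was 0.0565, 0.107 and 0.0839, and the difference of the means was not tested. Pairs in which both bins were A had means of 0.0684, 0.135 and 0.113, and pairs in which both were B had means of 0.0282, 0.0668 and 0.0448. Pairs of an A and a B bin had means of -0.0280, -0.0786 and -0.0639. In myotubes all 92 A pairs and all 159 B pairs were above 0, and 3.11% of the 257 mixed pairs were. Over all autosomal bins in myotubes, 81.9% of A pairs, 97.5% of B pairs and 17.6% of mixed pairs were above 0. The means over all autosomal bins were 0.0491, 0.0890 and 0.0825 for A pairs and 0.0212, 0.0579 and 0.0413 for B pairs. For mixed pairs they were -0.02115, -0.0599 and -0.0535. The order by compartment was thus also that of all autosomal bins.

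**Figure D4:**
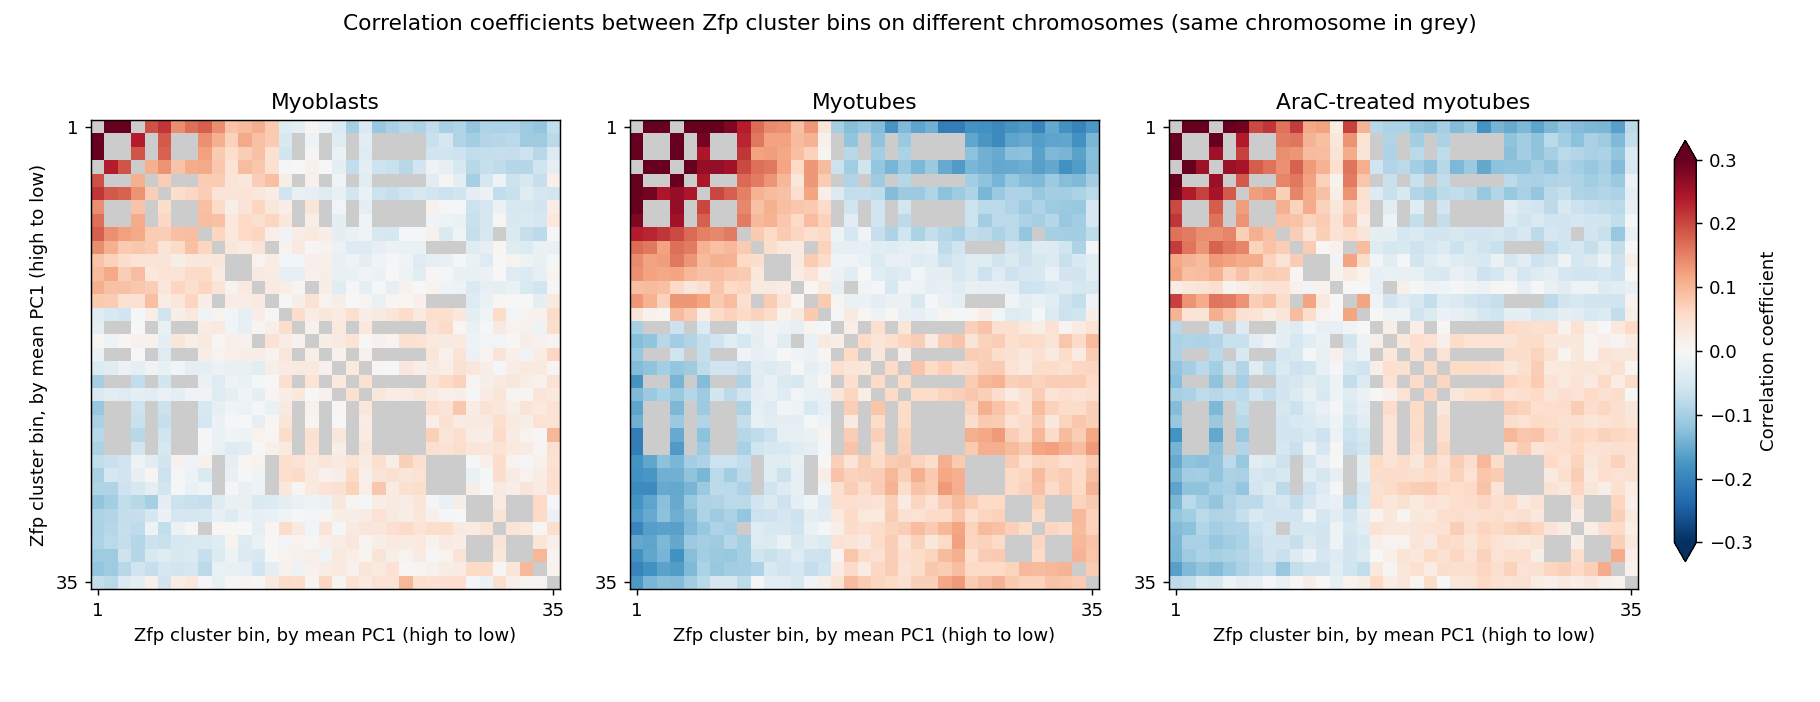
Correlation coefficients (colour) between the 35 Zfp cluster bins in the 3 conditions, with bins on both axes ordered by mean PC1 from high to low and pairs on the same chromosome in grey; values beyond the ends of the colour bar have the end colour. Red blocks at the upper left (A with A) and lower right (B with B) and blue blocks between them (A with B) were deepest in myotubes, where the means were 0.135, 0.0668 and -0.0786.

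The differences were smaller against pairs of like PC1. Each pair was compared with the mean of all pairs on different chromosomes that fell in the same PC1 classes (10 classes of equal size per condition). PC1 still varied within a class, and what this added to the differences was not tested. The mean difference over the 508 Zfp pairs was 0.00281 (myoblasts), 0.0041 (myotubes) and 0.00266 (AraC-treated myotubes), with an SD over pairs of 0.0256, 0.0319 and 0.0309. The sign rested on chr 7, since without its 12 bins the differences were -0.00026, -0.00038 and -0.00023. With classes of gene number in place of PC1 they were -0.0226, -0.0335 and -0.0280. In myotubes the A pairs stood 0.0188 above their classes (SD 0.0478), where A pairs of all bins stood 0.00236 above, and the difference for Zfp A pairs was -0.00284 in myoblasts and 0.00246 in AraC-treated myotubes.

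**Figure D5:**
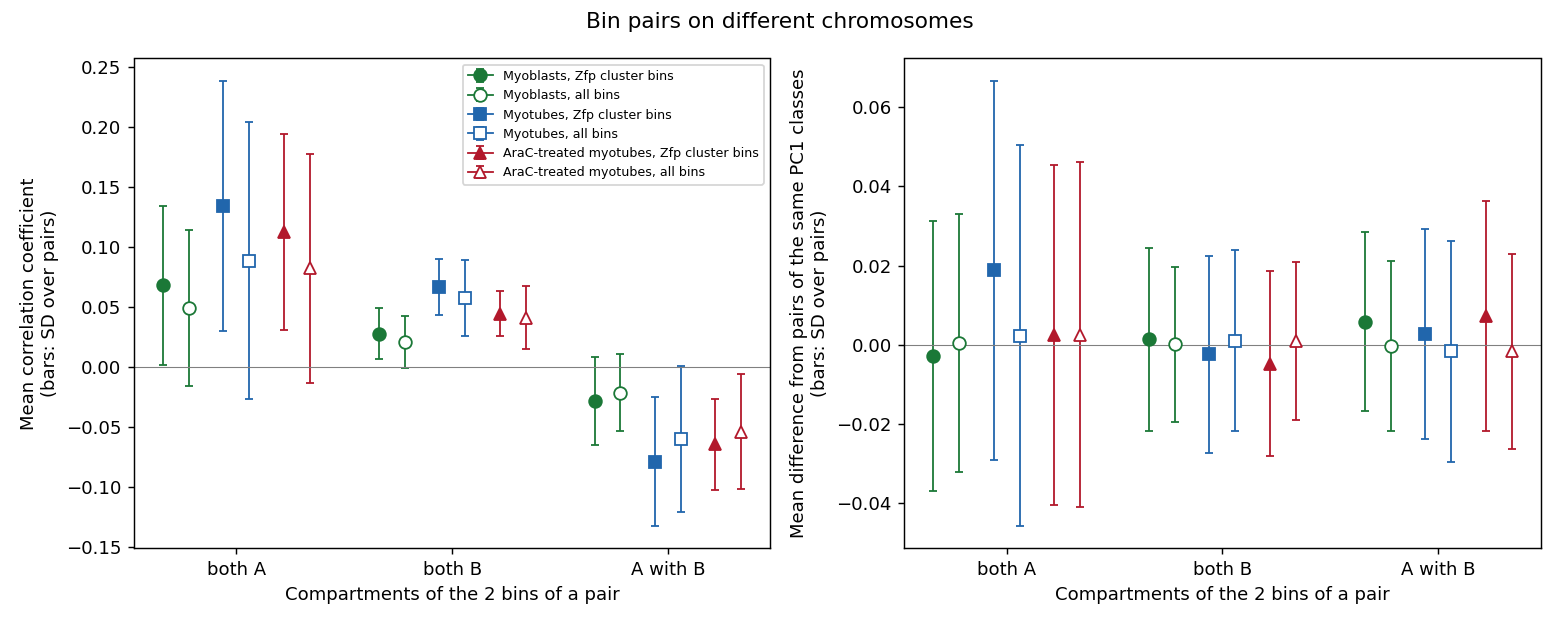
Mean correlation coefficient (left) and mean difference from pairs of the same PC1 classes (right) for bin pairs on different chromosomes, by the compartments of the 2 bins (x axis). Filled symbols are pairs of Zfp cluster bins, open symbols pairs of all autosomal bins, colours and shapes the conditions, and bars the SD over pairs; on the right the means lay between -0.00473 and 0.0188.

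Single pairs followed the same order. The 5 highest pairs by mean over conditions all contained a chr 15 bin. The pair of chr 15, 76.5 Mb (Zfp251, Zfp647, Zfp7) with chr 7, 127 Mb had 0.366 (myoblasts), 0.538 (myotubes) and 0.377 (AraC-treated myotubes), and stood 0.152, 0.169 and 0.0802 above its PC1 classes. With chr 7, 127.5 Mb the values were 0.304, 0.453 and 0.344, and with chr 7, 29.5 Mb they were 0.192, 0.422 and 0.336. The next were chr 7, 127 Mb with chr 15, 75.5 Mb (0.236, 0.381 and 0.300) and chr 5, 143 Mb with chr 15, 76.5 Mb (0.215, 0.335 and 0.288), which was 0.0010 above its classes in myoblasts and -0.0336 and -0.0083 from them later. In myoblasts chr 15, 76.5 Mb and chr 7, 127 Mb lay high within the top PC1 class, at percentiles 98.2 and 97.9 of all bins. The bin chr 5, 143 Mb lay low in that class (percentile 91.2). Its pair with chr 7, 127 Mb was -0.0296, -0.0801 and -0.0579 from its classes in the 3 conditions. The 5 lowest pairs joined chr 15, 76.5 Mb to B bins, and the lowest, with chr 2, 150 Mb, had -0.116, -0.201 and -0.162. The B bin chr 11, 50.5 Mb was above the PC1 classes in 14, 13 and 14 of its 14 pairs with bins that were A in all conditions. With A and B set in each condition, 57.1%, 51.4% and 61.1% of all mixed Zfp pairs were above them. Of mixed pairs of all autosomal bins, 49.0%, 47.0% and 46.6% were. The bin chr 11, 50.5 Mb was looked up after the highest pairs had been seen. Its pair with chr 7, 29.5 Mb had 0.0158, -0.104 and -0.0161, which was 0.0571, 0.0682 and 0.121 above the mean of the classes.

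The share of Zfp pairs in each tail of all pairs was above 1 in 20, only narrowly so for the lower tail in AraC-treated myotubes. Above the 95th percentile of all pairs lay 9.45% (myoblasts), 8.27% (myotubes) and 9.65% (AraC-treated myotubes) of the Zfp pairs, and below the 5th percentile 9.84%, 7.09% and 5.31%. The tails were not matched for compartment. In myoblasts 101 of 508 Zfp pairs were A with A, beside 1543049 of all 10547562 pairs. Among the 50 closest partners of each Zfp cluster bin on other chromosomes, 1750 in all, 19, 10 and 11 were Zfp cluster bins in the 3 conditions in order (1.09%, 0.571% and 0.629%), where 0.649% of the possible partners were Zfp cluster bins. No bin had more than 1 in any condition. The A Zfp cluster bins had mean correlations of -0.0221, -0.0623 and -0.0486 with the receptor gene bins on other chromosomes, and the B Zfp cluster bins 0.0200, 0.0507 and 0.0331, which were -0.00191, -0.00747 and -0.00613 from the means of their PC1 classes.

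Within a chromosome, PC1 is itself computed from these correlations, so values by side are a description and not separate evidence for the sides. On chr 7, pairs of Zfp cluster bins more than 10 Mb apart and on the same side had a mean correlation of 0.0637 for the 22 pairs of myoblasts, 0.145 for the 20 of myotubes and 0.114 for the 20 of AraC-treated myotubes. Pairs on opposite sides had -0.0377, -0.110 and -0.0846. All chr 7 pairs more than 10 Mb apart, whatever their sides, had 0.0128, 0.0173 and 0.0129. In myotubes and AraC-treated myotubes the ranges of same-side and opposite-side Zfp pairs did not overlap (0.0322 to 0.358 against -0.198 to -0.0233 in myotubes). The pairs of all chr 7 bins were not split by side, so whether this is particular to Zfp cluster bins was not tested. On chr 17 the 6 pairs between the B bins at 21, 21.5 and 22 Mb and the A bins at 32.5 and 33 Mb had -0.0017, -0.0298 and -0.0610.

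The genes of the KRAB corepressor machinery, a list of 15, lay in bins that were A for 11 of 15 (myoblasts), 10 of 15 (myotubes) and 9 of 15 (AraC-treated myotubes), beside the 38.2%, 36.5% and 35.5% of all autosomal bins and the 67.9%, 66.8% and 66.7% of the 627 bins with 10 or more protein-coding genes that were A. Trim28, the corepressor that KRAB domains bind, was the exception by position, since it lies in a Zfp cluster bin, chr 7, 12.5 Mb, with Zfp110, Zfp128, Zfp324, Zfp329 and Zfp446. PC1 of that bin was -0.552, -0.976 and -0.859. Setdb1, which methylates H3K9 at KRAB targets, lay in a bin with PC1 of 1.63, 3.23 and 2.63. The HP1 genes Cbx1 and Cbx5 lay in bins with 2.22, 3.72 and 3.21, and with 1.19, 2.89 and 2.27, and Cbx3 in one with 1.05, 0.498 and 0.237. Chd3, of the NuRD complex, lay in a bin with 2.00, 3.54 and 2.84. The HUSH genes divided, with Fam208a at 0.0807, 0.719 and 0.614, Mphosph8 at 1.15, 1.61 and 1.39, and Pphln1 at -0.922, -1.78 and -1.44. Morc2a, which acts with HUSH, lay in a bin with 1.50, 3.53 and 2.71. Atf7ip, the partner of SETDB1, lay at -0.268, -0.500 and -0.762, and Smarcad1 at -0.658, -1.13 and -0.952. Of the remaining genes, the bin of Suv39h2, another H3K9 methyltransferase, moved from 0.491 in myoblasts to -0.176 and -0.292, and that of Dnmt1, the maintenance DNA methyltransferase, had 0.495 and 0.757 and then -0.256 in AraC-treated myotubes. The bin of Uhrf1, which recruits DNMT1, had 0.758, 1.40 and 0.328. These are positions in the A/B compartments and not expression levels.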

How the data were processed

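The deposited files were 3 matrices of correlation coefficients between 500 kb bins (mm10), 1 per condition, in which the authors had pooled 2 biological replicate libraries. Per the labels and the study's methods, the authors mapped Hi-C read pairs with Bowtie, filtered them with HiCUP and built the matrices with HOMER. The coefficients are unitless, and read counts and depth cannot be recovered from them. The submitters' notes name both mm10 and GRCh38 as builds, and the last bin of every autosome started inside its mm10 chromosome.

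Bins on the 19 autosomes with a diagonal above 0.5 in all 3 matrices were kept. PC1 was taken from the within-chromosome block by singular value decomposition with centred columns, and oriented so that PC1 was higher in bins with more protein-coding genes. Genes came from GENCODE vM21. Finger and KRAB A box patterns were counted in proteins translated from the longest annotated coding sequence of the GRCm38 genome, and the KRAB pattern, either part of the box, was widened after the members' sequences had been read. Sequences were read from RefSeq GRCm38.p6, the same build as mm10. Shares have exact Clopper-Pearson 95% intervals. With 1 pooled matrix per condition, no test was run. The genes named were, per chromosome, the bin with the most Zfp genes, the bins with extreme or changed PC1, the extreme pairs, and a list of corepressor genes. The members and lists were chosen with earlier results of these data known. The calculation of the difference from PC1 classes was run on simulated matrices, where a planted difference was recovered. That difference was larger than the mean differences reported here, so the simulation does not cover differences of their size. Python 3.11.15, NumPy 2.4.6, SciPy 1.17.1 and pandas 2.3.3 were used.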

Additional observations from a re-analysis of the deposited data

How the results depend on the processing

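Of 113 values recomputed under an alternative, 72 stayed inside the 95% interval of a share, or within 1.5 times the main value with its sign (only the sign where the unit changed), and 41 did not. The shares with positive PC1 and the profile correlations all stayed. The median PC1 (-0.135, -0.543 and -0.508 in myoblasts, myotubes and AraC-treated myotubes) was 0.123, 0.113 and 0.0115 over the 60 bins with 2 or more Zfp genes and -0.376, -0.966 and -0.886 without centring. It was -0.274 in myoblasts over the 16 bins with 5 or more, and -0.468 in myoblasts and -0.766 in AraC-treated myotubes without chr 7. Sign changes from myoblasts fell to 0.0% to myotubes and 0.0% to AraC-treated myotubes above the 20th percentile of absolute PC1, and likewise to 0.0% and 0.0% with 5 or more genes. The mean correlation between chromosomes was 0.0120, 0.0118 and 0.00884 with 2 or more genes and 0.00149, -0.0017 and -0.00375 without chr 7. In myotubes it was 0.00332 with 5 or more genes, 0.00331 without the first 10 Mb of chromosomes and -0.0210 in SDs from the mean of all pairs; in AraC-treated myotubes the last was -0.0124 and the median 0.00112. The difference from PC1 classes was -0.00026, -0.00038 and -0.00023 without chr 7, -0.0226, -0.0335 and -0.0280 with classes of gene number, and 0.00507, 0.00631 and 0.0059 with 5 or more genes. With 2 or more the myotube value was 0.00663 and that of AraC-treated myotubes 0.00613; as a median it was 0.00199 in myotubes. Without receptor gene bins it was 0.00173 in myoblasts and 0.0041 in AraC-treated myotubes, and without the first 10 Mb 0.00169 in myoblasts. The cause of these shifts was not tested. With the first part of the KRAB box alone, an alternative added after seeing the data, 53.7% of A and 69.5% of B Zfp genes matched. No paired analysis was possible because the replicates were pooled in the deposited matrices, so leaving out a replicate was not run either.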

Other observations

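Zinc finger genes under other names formed further clusters that the symbol rule did not take. Besides the 35 Zfp cluster bins, 18 autosomal bins with data held 3 or more genes with 3 or more C2H2 motifs, mostly Gm, Rik, Zkscan and Zscan genes. Of these, 3 were A in all conditions, 11 were B in all and 4 changed sign, where 1477 of all 4727 autosomal bins were A in all and 2716 were B in all. The bin with the most such genes, chr 2, 177 Mb, with Zfp970 and 7 Gm genes among 8 protein-coding genes, had PC1 of -0.701 (myoblasts), -1.20 (myotubes) and -0.798 (AraC-treated myotubes). The Zscan4 cluster, known from expression in 2-cell embryos, at chr 7, 11 Mb, had -0.699, -1.19 and -0.819. PC1 at chr 5, 138 Mb (Zfp113, Zfp157, Zkscan1, Zscan21) was -0.0887, 0.0943 and 0.929, at chr 10, 82 Mb (Zfp873, Zfp938 and 3 others) -0.243, 0.257 and 0.929, and at chr 11, 58.5 Mb (Zfp39, Gm12258, 2810021J22Rik) -0.195, 0.518 and 0.934, so that these 3 bins went from B to A. At chr 17, 23.5 Mb (Zfp13, Zfp213, Zscan10) PC1 was 0.287, 0.529 and -0.157. These bins were looked up after the Zfp cluster bins had been described, and no test was made of the number that changed.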
